A study of Homo sapiens with 9 samples.

Results

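ETS transcription factors are a family of DNA-binding proteins. The 10 genes described here are ETV1, ETV4, ETV5, ERG, ELK4, EHF, ELF1, ELF3, ETS2 and GABPA, taken by exact gene symbol from the 25142 entries of a gene expression table, and all 10 were present. SPDEF, another ETS gene, was kept apart from them and is used only for comparison. Of the 10, 7 reached the level needed for testing, 0.5 RPKM in at least 3 libraries, and ETV4, ETV5 and ERG did not. RPKM (reads per kilobase per M reads, M standing for mega) is a level per length, so it can be compared between genes.

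The samples were LNCaP cells, an established line of human prostate cancer cells that responds to androgen. All cells were first held for 24 h in medium with 5% charcoal-treated serum, which is depleted of steroids, and then treated for 18 h. The vehicle group received DMSO, the R1881 group received 1 nM of R1881, a synthetic androgen, and the third group received 1 nM R1881 together with 10 µM of MEL-6, a code-named compound. Each group had 3 biological replicates, and no group analysed here received MEL-6 without R1881, so every effect of MEL-6 below is one in the presence of androgen. The labels do not say whether the replicates were separate passages or days. The p-values set differences between groups against the spread within groups, for these 9 libraries of 1 cell line only.

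ETS proteins share a DNA-binding domain, the ETS domain, that reads a short core sequence, GGAA, and the subfamilies differ in the flanking bases, in partner proteins and in the signals that switch them on. ETV1, ETV4 and ETV5 (the PEA3 subfamily) and ELK4 (a ternary complex factor that binds beside serum response factor) are phosphorylated by ERK kinases, whereas EHF and ELF3 belong to the epithelium-specific branch. In prostate cancer, ERG, ETV1, ETV4, ETV5 and ELK4 are known as the 3′ partners of gene fusions whose 5′ partners are androgen-regulated genes such as TMPRSS2 and SLC45A3. In LNCaP the ETV1 gene has been reported to lie inserted at the MIPOL1 locus of chromosome 14.

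Depths estimated from the values were between 5.74 and 16.1 M reads per library, 6.21 to 9.54 for vehicle, 11.2 to 16.1 for R1881 and 5.74 to 10.3 for R1881 with MEL-6, so low genes were measured best in the R1881 libraries. Replicates correlated at r = 0.985 to 0.994 across genes, and genes are not independent samples. KLK3, the androgen-induced gene of prostate-specific antigen, averaged 308 ± 32.9, 2219.7 ± 59.3 and 619 ± 7.46 RPKM (SD, n = 3) in vehicle, R1881 and R1881 with MEL-6. The luminal keratin gene KRT8 was high in every library (75.7 to 529 RPKM), while markers of other cell types were partly detected. Listed at 0 in all 9 were 2 of 3 basal genes (KRT5 and TP63), 2 of 4 leukocyte genes (PTPRC and CD3E), 2 of 4 endothelial genes (PECAM1 and CDH5) and 1 of 6 fibroblast genes (COL1A2). The 3 markers high enough to be tested were the macrophage gene CD68, between 2.88 and 4.15 RPKM over the libraries, the endothelial VWF, with group means of 1.04 ± 0.157, 0.423 ± 0.0554 and 0.699 ± 0.106, and the fibroblast COL1A1, at 2.58 ± 0.385, 2.12 ± 0.0819 and 3.28 ± 0.154. VWF fell with R1881 by 0.74 ± 0.139 on the log2 scale (limma adjusted p = 0.00158), and the other detected markers stayed below 0.4 RPKM. The part of such cells in the results was not tested.

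The bases before the transcription start are shown for the 3 members that changed most, ELK4, ETV1 and ELF3, to set the ETS cores at the starts of genes that moved in opposite directions side by side. They are 250-base windows from RefSeq on GRCh38.p14, written 5′ to 3′ on the gene's own strand, with GGAA and its reverse complement TTCC in capitals. The ELK4 window is chr1:205632012-205632261 (minus strand), that of ETV1 is the most upstream of its 6 windows, chr7:13991426-13991675 (minus strand), and that of ELF3 is chr1:202010337-202010586 (plus strand).
ELK4: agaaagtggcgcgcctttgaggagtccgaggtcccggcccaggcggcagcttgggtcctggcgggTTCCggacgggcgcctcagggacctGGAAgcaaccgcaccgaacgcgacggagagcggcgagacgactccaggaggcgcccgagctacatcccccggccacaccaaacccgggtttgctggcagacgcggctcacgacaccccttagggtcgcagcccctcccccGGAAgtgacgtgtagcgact
ETV1: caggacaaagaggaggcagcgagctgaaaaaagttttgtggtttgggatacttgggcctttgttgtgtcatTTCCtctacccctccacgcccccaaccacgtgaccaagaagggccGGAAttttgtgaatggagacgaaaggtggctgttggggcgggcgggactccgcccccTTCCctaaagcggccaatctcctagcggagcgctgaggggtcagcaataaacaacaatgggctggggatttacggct
ELF3: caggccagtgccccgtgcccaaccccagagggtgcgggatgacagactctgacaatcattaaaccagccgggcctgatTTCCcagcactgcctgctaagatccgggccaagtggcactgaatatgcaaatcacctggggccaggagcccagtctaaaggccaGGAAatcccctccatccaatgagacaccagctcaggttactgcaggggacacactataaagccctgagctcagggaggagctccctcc
The ELK4 and ETV1 windows held 3 cores each and the ELF3 window held 2, counted on both strands. Of 35116 such windows of all genes, 92.7% held at least 1 core and the median was 3, so these counts are ordinary. The longer ETS site CCGGAAG, which contains the core, was found 22 bases before the ELK4 start and in neither of the other windows, and 8.52% of all windows held it. The androgen response half-site AGAACA, found in 12.4% of all windows, had no match in the 3 windows printed. A pair of overlapping windows of ETV1, chr7:13990703-13990952 and chr7:13990707-13990956, held 1 match each, which may be the same site. The other 4 windows of ETV1 held none. Of the 3 ELF1 windows, chr13:40982900-40983149 also held 1 match of AGAACA, and the GABPA window held 1 match of CCGGAAG. Windows were found for 8 of the 10 members, all but ETV4 and ETV5.

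EHF was the most abundant member, and ETV1 and ELK4 followed it in every group. The 10 genes together summed to 225 ± 3.91 RPKM in vehicle, 281 ± 5.24 with R1881 and 216 ± 7.70 with R1881 and MEL-6 (SD, n = 3). In bulk RNA, fewer cells of a kind and less RNA per cell cannot be told apart. EHF alone made up 64.1%, 59.6% and 63.7% of that sum, in the same order. The share of ETV1 was 18.9%, 22.3% and 16.6%, and that of ELK4 was 5.58%, 11.0% and 5.97%. Below these 3 the order depended on treatment. ELF1 and ELF3 overlapped in vehicle, ELF3 overlapped with GABPA under R1881, and ELF3 overlapped with ELK4 under R1881 with MEL-6. The libraries of ETV4 and ETV5 overlapped with each other in vehicle and under R1881.

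**Figure D1:**
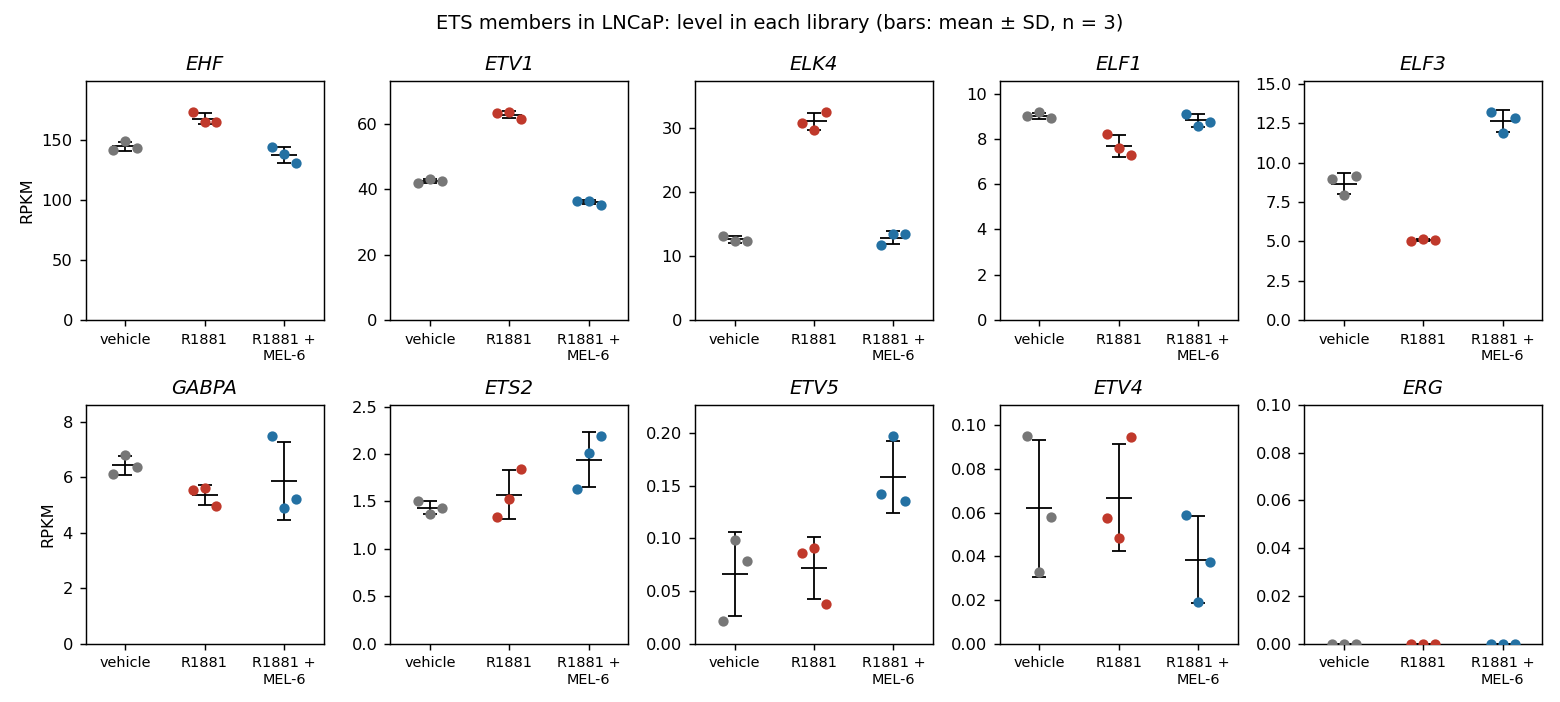
RPKM of each of the 10 ETS genes in the 9 libraries, with each panel on its own linear axis from 0; points are libraries, and bars are the mean and SD of 3. ELK4 and ETV1 are highest in the 3 R1881 libraries, ELF3 is lowest there, and ERG is at 0 throughout.

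In R1881 against vehicle, ELK4, ETV1 and EHF rose and ELF3 and ELF1 fell, while ETS2 and GABPA did not pass the test. That is 5 of the 7 tested members, beside 45.8% of all 13295 tested genes, or 3 higher beside 14.5% and 2 lower beside 31.3%, and the libraries of both groups did not overlap for 6 of the 7, beside 57.9% of all genes. The test was limma on log2(RPKM + 0.5), two-sided, with Benjamini-Hochberg adjustment over all tested genes and calls at an adjusted p under 0.05. The median log2 change was 0.09 over the 7 members and -0.12 over all tested genes. In R1881 with MEL-6 against R1881, ELF3 and ELF1 rose and ELK4, ETV1 and EHF fell, 5 of 7 beside 52% of all genes, or 2 higher beside 31.4% and 3 lower beside 20.6%. The groups did not overlap for these 5, beside 59.8% of all genes, and the median change was 0.10 over the members beside 0.07. These comparisons share the R1881 libraries, so their values are not independent of each other. The direct comparison of R1881 with MEL-6 against vehicle called ELF3 higher and ETV1 lower, 2 of 7 beside 38% of all genes (17.2% higher and 20.8% lower). The groups did not overlap for 3 members, beside 46.5% of all genes, and the median was -0.03 over the members and -0.01 over all genes.

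**Figure D2:**
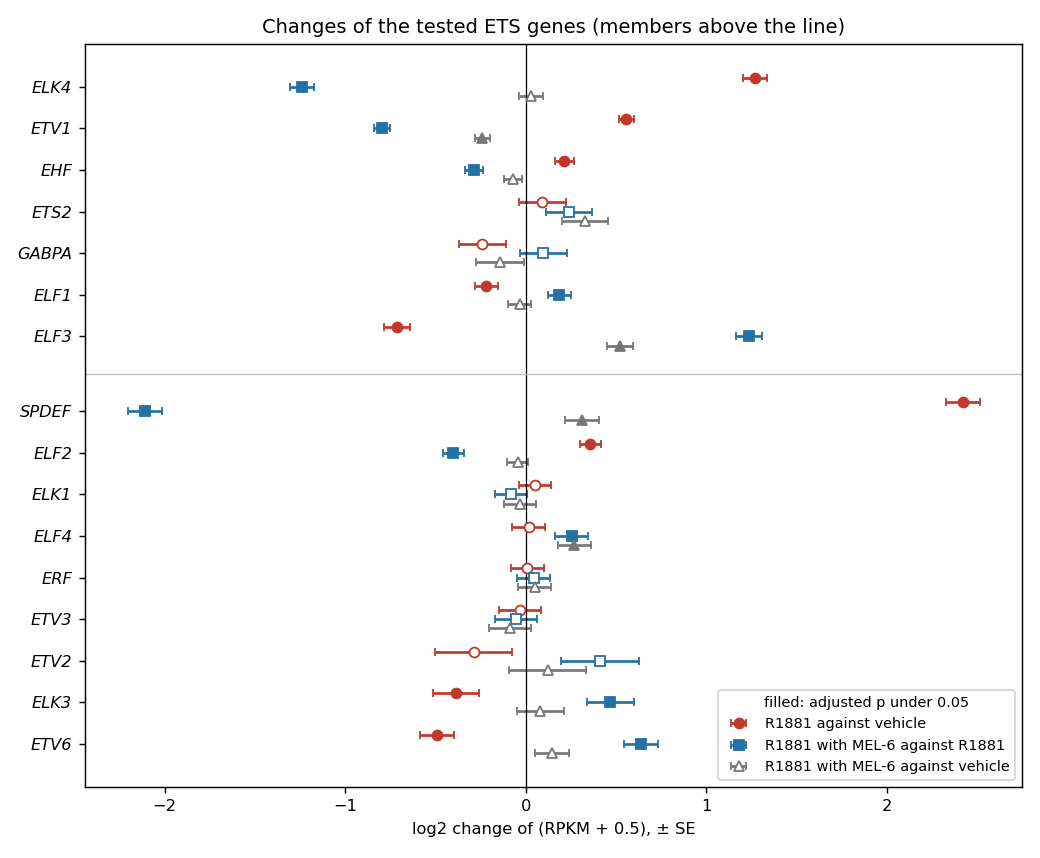
Log2 change of (RPKM + 0.5) with its SE for the 7 tested members (above the line) and the 9 other tested ETS genes (below it), in R1881 against vehicle (circles), R1881 with MEL-6 against R1881 (squares) and R1881 with MEL-6 against vehicle (triangles); filled symbols have an adjusted p under 0.05. ELK4 lies at 1.27 and -1.24 and ELF3 at -0.71 and 1.23 in the first 2 comparisons, and SPDEF at 2.42 and -2.11.

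ETV1, whose product activates genes of migration and of the androgen response in prostate cells and is oncogenic when fused, was the second most abundant member (chr7:13930854-14031050 on GRCh37). Its level was 41.9, 43.1 and 42.5 RPKM in the vehicle libraries, 63.2, 63.5 and 61.5 with R1881, and 36.3, 36.3 and 35.2 with R1881 and MEL-6. No library of one group overlapped with those of another, and the MEL-6 group lay below vehicle as well as below R1881. ETV1 rose with R1881 by 0.56 ± 0.042 on the log2 scale (SE; limma adjusted p = 2.69e-06), a ratio of mean RPKM of 1.48. With MEL-6 it fell by 0.80 ± 0.042 (adjusted p = 1.85e-07, ratio 0.573). Against vehicle it was lower by 0.24, with a 95% interval of the log2 change from -0.33 to -0.15 (adjusted p = 0.00153).

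The other PEA3 genes were close to the limit of detection. ETV5 (chr3:185764106-185826901) was at 0.0213, 0.0984 and 0.0784 RPKM in vehicle, 0.0866, 0.0905 and 0.0380 with R1881, and 0.142, 0.197 and 0.135 with R1881 and MEL-6, values that stand for about 40 reads over all 9 libraries. All 3 MEL-6 libraries lay above the other 6. It was outside the tested genes; with no filter on low values the log2 change with MEL-6 was 0.20 against R1881 (limma adjusted p = 0.0460) and 0.22 against vehicle (adjusted p = 0.0476). ETV4 (chr17:41605211-41623762) ranged from 0.0190 to 0.0950 RPKM, about 18 reads in all, and the 3 groups overlapped. For ETV1, by contrast, each library was above 35 RPKM.

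ERG (chr21:39751949-40033704), an ETS gene that normally marks endothelial and blood-forming cells and is switched on in many prostate tumours by fusion to TMPRSS2, was listed at 0 in all 9 libraries. A count of 0 allows up to 3 reads, which for ERG is 0.0246 to 0.0689 RPKM depending on the library, for counting error only. No fold is given for it. Of the 11 genes known as 5′ partners of prostate ETS fusions, 8 rose with R1881 and 1 fell, beside 14.5% and 31.3% of all tested genes, with a median log2 change of 3.10 beside -0.12. With MEL-6 against R1881, 8 of these 11 fell and 1 rose, beside 20.6% and 31.4% of all genes, with a median of -2.03 beside 0.07. Androgen-regulated genes were known among these partners beforehand, so the counts describe the list and do not test that regulation.

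ELK4, which recruits transcription to serum response factor at immediate early genes, changed most among the members with R1881 (chr1:205585235-205602000). It was at 13.2, 12.3 and 12.3 RPKM in vehicle, 30.8, 29.7 and 32.4 with R1881, and 11.7, 13.4 and 13.4 with R1881 and MEL-6. The R1881 libraries stood apart, and the other 6 overlapped. ELK4 rose by 1.27 ± 0.066 on the log2 scale (limma adjusted p = 1.53e-07), a ratio of 2.46, and only 251 of the tested genes had a larger rise. With MEL-6 it fell by 1.24 ± 0.066 (adjusted p = 1.89e-07, ratio 0.415). Between R1881 with MEL-6 and vehicle the log2 difference was 0.03, with a 95% interval from -0.12 to 0.18 (adjusted p = 0.763), so a difference beyond that interval was not seen in either direction.

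The entries on both sides of ELK4 moved with it. On the side of higher coordinates, at a gap of 24981 bases, lies SLC45A3, an androgen-induced prostate gene, and an RNA that reads from SLC45A3 into ELK4 is known from prostate cells. SLC45A3 averaged 43.9 ± 7.07, 433 ± 4.21 and 106 ± 13.8 RPKM in vehicle, R1881 and R1881 with MEL-6. Its log2 changes were 3.30 ± 0.118 with R1881 (limma adjusted p = 8.54e-09) and -2.03 ± 0.118 with MEL-6 (adjusted p = 3.24e-07). Unlike ELK4, it stayed above vehicle in the MEL-6 group, by 1.27 ± 0.118 (adjusted p = 2.31e-05), and the difference between these genes was not tested. On the other side, 3272 bases away, LOC100506969 averaged 23.5 ± 2.34, 55.0 ± 4.75 and 24.1 ± 0.435 RPKM, log2 changes of 1.21 (adjusted p = 7.75e-07) and -1.17 (adjusted p = 8.96e-07). ELK4 is on the minus strand, so LOC100506969 lies downstream of it, and whether both entries share a transcript was not tested. How much of the gene-level value of ELK4 came from read-through RNA was not tested.

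**Figure D3:**
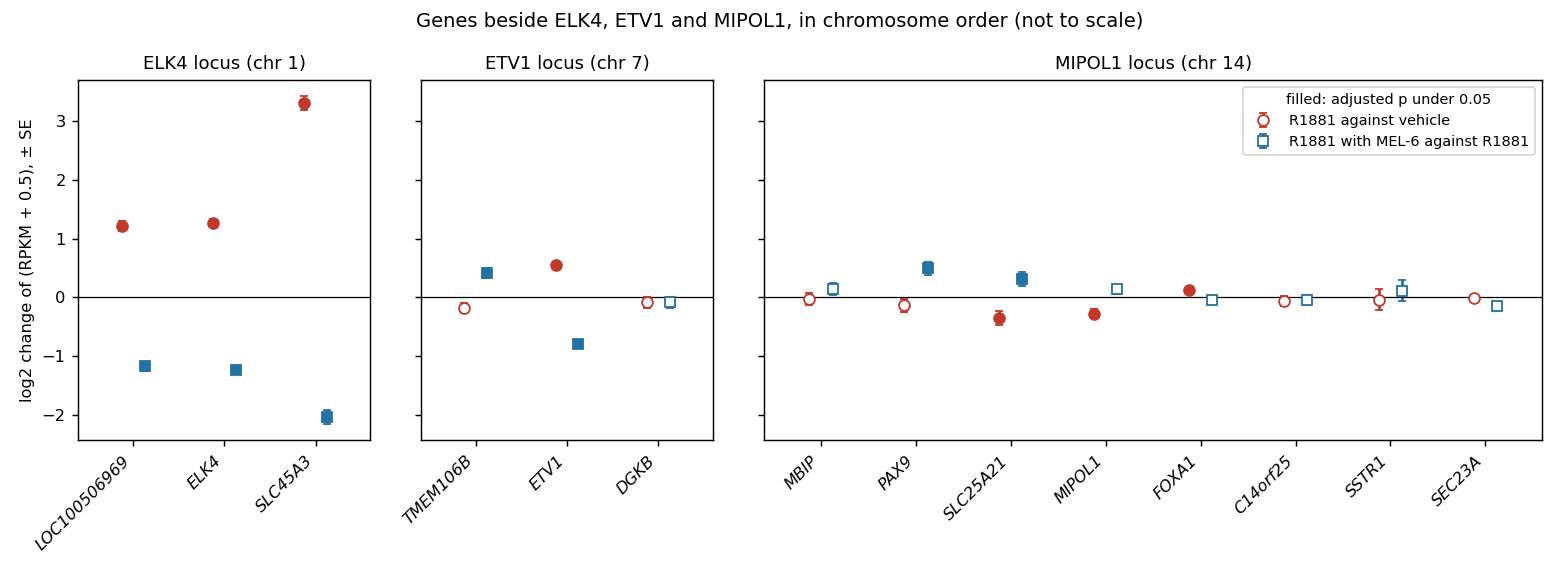
Log2 change of (RPKM + 0.5) with its SE for tested entries around ELK4, ETV1 and MIPOL1, in chromosome order but not to scale; circles are R1881 against vehicle, squares are R1881 with MEL-6 against R1881, and filled symbols have an adjusted p under 0.05. The 3 entries at ELK4 rose with R1881 and fell with MEL-6, whereas at ETV1 TMEM106B and DGKB were not called with R1881.

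DGKB, 153624 bases from ETV1 and coding for a diacylglycerol kinase, averaged 2.51 ± 0.0336, 2.35 ± 0.223 and 2.19 ± 0.0749 RPKM, with log2 changes of -0.08 (limma adjusted p = 0.485) and -0.08 (adjusted p = 0.466). TMEM106B, a lysosomal gene on the side of lower coordinates, changed by -0.18 with R1881 (adjusted p = 0.104) and rose with MEL-6 by 0.41 ± 0.0829 (adjusted p = 0.00197), while ETV1 fell. At the MIPOL1 locus of chromosome 14, 8 of the 11 listed genes found in the table were tested. With R1881, 2 of them fell and 1 rose, beside 31.3% and 14.5% of all tested genes. MIPOL1 fell by 0.28 ± 0.0763 (adjusted p = 0.0134), SLC25A21, a mitochondrial carrier gene, fell by 0.35 ± 0.121 (adjusted p = 0.0376), and FOXA1, a pioneer transcription factor, rose by 0.13 ± 0.05 (adjusted p = 0.0494). The calls of FOXA1 and SLC25A21 were each lost in 9 of 18 alternative fits and that of MIPOL1 in 1. With MEL-6 against R1881, PAX9, a developmental factor, rose by 0.49 ± 0.109 (adjusted p = 0.00350) and SLC25A21 rose by 0.32 ± 0.121 (adjusted p = 0.0477, lost in 9 of 18 fits), 2 of the 8 beside 31.4% of all genes, and none fell. Which copy of ETV1 the reads came from was not tested.

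EHF, an epithelial factor of the secretory prostate, differed little between groups in proportion to its level (chr11:34642588-34684835). The libraries read 142, 149 and 143 RPKM in vehicle, 173, 165 and 165 with R1881, and 144, 138 and 131 with R1881 and MEL-6. The R1881 libraries were all above the rest, and vehicle and MEL-6 libraries overlapped. It rose with R1881 by 0.21 ± 0.051 on the log2 scale (limma adjusted p = 0.00645) and fell with MEL-6 by 0.29 ± 0.051 (adjusted p = 0.000936). Against vehicle the 95% interval of the log2 change ran from -0.19 to 0.04 (adjusted p = 0.301).

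ELF3, the other epithelium-specific member, known for differentiation and inflammatory signalling in epithelia, moved against EHF (chr1:201979690-201986316). It was at 8.96, 7.92 and 9.14 RPKM in vehicle, 5.02, 5.15 and 5.06 with R1881, and 13.2, 11.9 and 12.9 with R1881 and MEL-6. The 3 groups did not overlap at all. ELF3 fell with R1881 by 0.71 ± 0.071 on the log2 scale (limma adjusted p = 2.02e-05) to 0.586 of the vehicle level. With MEL-6 it was higher than with R1881 alone by 1.23 ± 0.071 (adjusted p = 3.07e-07, ratio 2.49), a rise exceeded by 249 tested genes. It also passed vehicle, by 0.52 with a 95% interval from 0.36 to 0.68 (adjusted p = 0.000314). LOC100289488, 452 bases from ELF3, fell with R1881 by 0.42 ± 0.0935 (adjusted p = 0.00414) and rose with MEL-6 by 0.34 ± 0.0935 (adjusted p = 0.0104).

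ELF1, a widely expressed factor of the ELF subfamily, showed small changes (chr13:41506055-41593508). It was at 8.99, 9.18 and 8.91 RPKM in vehicle, 8.23, 7.58 and 7.28 with R1881, and 9.11, 8.57 and 8.76 with R1881 and MEL-6. The R1881 libraries lay below the other 6. ELF1 fell with R1881 by 0.22 ± 0.063 on the log2 scale (limma adjusted p = 0.0168) and rose with MEL-6 by 0.19 ± 0.063 (adjusted p = 0.0304). Both calls were lost under median-of-ratios scaling, with changes of -0.11 (adjusted p = 0.193) and 0.11 (adjusted p = 0.191), and when R1881 replicate 2 or R1881 replicate 3 was left out (adjusted p = 0.0563 and 0.0702 for the fall, 0.0874 and 0.115 for the rise). The rise was also lost without replicate 1 or replicate 3 of the MEL-6 group (adjusted p = 0.0743 and 0.0552).

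GABPA, the DNA-binding subunit of the GABP complex that drives nuclear genes of the mitochondria, was at 6.13, 6.80 and 6.37 RPKM in vehicle, 5.54, 5.63 and 4.95 with R1881, and 7.50, 4.90 and 5.22 with R1881 and MEL-6 (chr21:27113884-27144771). Vehicle and R1881 did not overlap, and replicate 1 of the MEL-6 group, the shallowest library, stood above the other 2 of its group. The log2 change with R1881 was -0.24 ± 0.132, with a 95% interval from -0.53 to 0.05 (limma adjusted p = 0.161). Without that MEL-6 library the same change had an adjusted p of 0.0230, and the change of R1881 with MEL-6 against vehicle went from -0.14 (adjusted p = 0.424) to -0.32 (adjusted p = 0.0146). Of 12 genes of mitochondrial gene expression and respiration known as GABP targets, 2 fell and none rose with R1881, beside 31.3% and 14.5% of all tested genes, with a median of -0.12 both for the list and for all genes. One of them, TFB1M, fell by 0.28 (adjusted p = 0.0428), a call lost in 9 of 18 alternative fits. TFAM, the packaging factor of mitochondrial DNA, averaged 60.6 ± 1.74, 46.6 ± 3.77 and 43.9 ± 3.84 RPKM and fell with R1881 by 0.38 ± 0.0742 (adjusted p = 0.00199). In R1881 with MEL-6 against vehicle 5 of the 12 fell and none rose, beside 20.8% and 17.2% of all genes, with TFAM lower by 0.46 ± 0.0742 (adjusted p = 0.000818) and ATP5B, a subunit of ATP synthase, lower by 0.42 ± 0.0859 (adjusted p = 0.00332).

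ETS2, a factor activated through the Ras pathway, was low, at 1.50, 1.37 and 1.43 RPKM in vehicle, 1.33, 1.53 and 1.85 with R1881, and 1.63, 2.01 and 2.19 with R1881 and MEL-6 (chr21:40177849-40196879), which stand for about 39 to 137 reads a library. The MEL-6 libraries lay above all vehicle libraries and overlapped with R1881. It was not called in any of the 3 comparisons, and its change against vehicle was 0.33 ± 0.128, with a 95% interval from 0.05 to 0.61 (limma adjusted p = 0.0660). That change passed the threshold under upper-quartile scaling, with no intensity trend, and without replicate 1 of the MEL-6 group (adjusted p = 0.0415, 0.0438 and 0.0286).

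Across the 9 libraries, ELK4, ETV1 and EHF varied together and opposite to ELF3. The Pearson r on the log2 scale was 0.94 for ETV1 with ELK4, 0.96 for ETV1 with EHF, and -0.98 for ETV1 with ELF3, as a description of 9 points that fall into 3 groups and share their libraries. Among all tested genes the patterns most like ELK4 were those of KRT18, ABHD2 and JAG1 (r = 0.998 for each). KRT18, a keratin of luminal cells, averaged 112 ± 6.45, 419 ± 14.3 and 115 ± 7.80 RPKM. SLC39A10, a zinc transporter, was nearest to ETV1 (r = 0.999), at 12.6 ± 0.675, 29.9 ± 1.16 and 9.01 ± 0.282 RPKM, followed by DDAH1 and GSPT1 (r = 0.998 and 0.996). For ELF3 the nearest were ANKRD57, STC2 and SFXN3 (r = 0.996 for each), of which STC2, a secreted glycoprotein gene induced by stress, averaged 24.1 ± 0.539, 11.4 ± 0.398 and 40.5 ± 2.33 RPKM. For ETS2 they were WDR45L, KIAA1949 and RPL7 (r = 0.970, 0.962 and 0.955). WDR45L and KIAA1949, like ETS2, were not called in any comparison. RPL7 was called only in R1881 with MEL-6 against vehicle (limma adjusted p = 0.0301), and that call was lost in 5 of 18 alternative fits. It spread widely within groups, from 2.95 to 6.74 RPKM with R1881 and from 4.26 to 12.3 with R1881 and MEL-6.

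Of 18 other ETS family genes in the table, 9 were tested, with 2 higher and 2 lower with R1881, and 3 higher and 2 lower with MEL-6 against R1881. That is 4 and 5 of 9, beside 45.8% and 52% of all tested genes, and so close to the background. SPDEF, a prostate epithelial factor, averaged 40.8 ± 1.24, 221 ± 15.1 and 51.0 ± 7.47 RPKM, so its level with R1881 was above that of any member. It rose by 2.42 ± 0.094 on the log2 scale (limma adjusted p = 1.52e-08) and fell with MEL-6 by 2.11 ± 0.094 (adjusted p = 5.10e-08). ELF2, a relative of ELF1, moved in the direction opposite to it, rising by 0.36 ± 0.0585 (adjusted p = 0.000667) and falling with MEL-6 by 0.40 ± 0.0585 (adjusted p = 0.000239). ETV6, a repressor, averaged 3.39 ± 0.246, 2.28 ± 0.240 and 3.81 ± 0.183 RPKM; it fell with R1881 by 0.49 ± 0.0942 (adjusted p = 0.00180) and rose with MEL-6 by 0.64 ± 0.0942 (adjusted p = 0.000262). ELK3, a relative of ELK4, fell by 0.39 ± 0.128 (adjusted p = 0.0308), a call lost in 7 of 18 alternative fits (highest adjusted p = 0.0960), and rose with MEL-6 by 0.47 ± 0.128 (adjusted p = 0.0109). FLI1 and ETV3L were listed at 0 in every library.

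The 14 genes of ETS partners and protein turnover were all tested, and 1 rose and 2 fell with R1881, while 3 rose and 3 fell with MEL-6 against R1881. These 3 and 6 of 14 stand beside 45.8% and 52% of all tested genes. TRIM25, a ubiquitin ligase reported to act on ERG, averaged 32.3 ± 0.878, 19.6 ± 0.193 and 27.4 ± 1.60 RPKM. It fell with R1881 by 0.71 ± 0.0537 (limma adjusted p = 2.53e-06) and rose with MEL-6 by 0.47 ± 0.0537 (adjusted p = 4.35e-05). SPOP, the adaptor of another ligase that acts on ERG, rose by 0.21 ± 0.0477 (adjusted p = 0.00419) and fell with MEL-6 by 0.36 ± 0.0477 (adjusted p = 0.000114). DET1, which works with the ligase COP1 in the turnover of PEA3 proteins, fell by 0.36 ± 0.0963 (adjusted p = 0.0114) and rose with MEL-6 by 0.54 ± 0.0963 (adjusted p = 0.000915). The gene of COP1, listed as RFWD2, averaged 15.2 ± 0.465, 15.6 ± 0.302 and 13.5 ± 0.730 RPKM; it changed by 0.03 with R1881 (adjusted p = 0.649) and fell with MEL-6 by 0.20 ± 0.0567 (adjusted p = 0.0117). ATXN1, a partner of the repressor CIC that silences PEA3 genes, rose with MEL-6 by 0.79 ± 0.0937 (adjusted p = 5.60e-05), and the change with R1881 was -0.12 (adjusted p = 0.320). CIC itself changed by -0.03 and 0.03 and was not called.

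Of 14 genes of ERK output and feedback, the pathway that activates PEA3 and ELK proteins, 8 were tested, with 2 higher and 3 lower with R1881 and 4 higher and 3 lower with MEL-6 against R1881, which is 5 and 7 of 8 beside 45.8% and 52% of all tested genes. Of the 7 calls with MEL-6, that of CCND1 was lost in 13 of 18 alternative fits and that of IER3 in 5. Those of DUSP4 and EPHA2 were lost in 0. DUSP4, a phosphatase of MAP kinases, was at 3.56 ± 0.929, 9.70 ± 0.595 and 5.46 ± 0.851 RPKM, rose by 1.35 ± 0.157 (limma adjusted p = 6.22e-05) and fell with MEL-6 by 0.78 ± 0.157 (adjusted p = 0.00190). EPHA2, a receptor tyrosine kinase gene, went the other way, at 1.24 ± 0.181, 0.465 ± 0.110 and 1.67 ± 0.202 RPKM, with log2 changes of -0.86 ± 0.140 (adjusted p = 0.000666) and 1.17 ± 0.140 (adjusted p = 6.13e-05). Of 8 immediate early genes bound by serum response factor with ELK proteins, 3 were tested, and none rose and 2 fell with R1881, beside 14.5% and 31.3% of all genes. IER2 was at 23.7 ± 1.18, 17.3 ± 0.751 and 24.6 ± 2.49 RPKM, with changes of -0.44 ± 0.0753 (adjusted p = 0.000847) and 0.49 ± 0.0753 (adjusted p = 0.000327). MCL1, which blocks apoptosis, fell with R1881 by 0.26 ± 0.0517 (adjusted p = 0.00223) and was not called with MEL-6 against R1881 (-0.02, adjusted p = 0.776). JUNB, the third, changed by 0.12 ± 0.106 with R1881 (adjusted p = 0.399) and by 0.17 ± 0.106 with MEL-6 (adjusted p = 0.203).

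Genes of invasion that ETS factors are reported to activate were mostly silent: of 14, 2 were tested. CXCR4, a chemokine receptor, was at 0.209, 0.161 and 0.0640 RPKM in vehicle, 1.02, 1.20 and 1.05 with R1881, and 0.348, 0.387 and 0.276 with R1881 and MEL-6. The groups did not overlap, and CXCR4 rose by 1.31 ± 0.151 (limma adjusted p = 5.79e-05) and fell with MEL-6 by 0.93 ± 0.151 (adjusted p = 0.000489). CXCR4 was among the tested genes only through its high R1881 libraries, since no other library reached 0.5 RPKM. Its p-values therefore describe a gene picked by that group and do not stand as support for either change. VIM, the intermediate filament of mesenchymal cells, was at 0.813 ± 0.269, 0.396 ± 0.0895 and 2.06 ± 0.460 RPKM and rose with MEL-6 by 1.50 ± 0.186 (adjusted p = 7.69e-05); its fall with R1881, 0.54 ± 0.186 (adjusted p = 0.0365), was lost in 7 of 18 alternative fits (highest adjusted p = 0.129). The fibroblast marker COL1A1 was highest in the same group as VIM while COL1A2 was at 0, and the part of other cells in the VIM result was not tested. Of 10 genes reported with ERG or ETV1 fusions, 6 were tested, and 2 rose and 1 fell with R1881, beside 14.5% and 31.3% of all tested genes. SOX9, a developmental factor, rose by 0.64 ± 0.120 (adjusted p = 0.00153) and fell with MEL-6 by 0.71 ± 0.120 (adjusted p = 0.000654). CACNA1D, a calcium channel gene raised in ERG-positive tumours, was not called with R1881 (-0.27, adjusted p = 0.0974) and rose with MEL-6 by 0.90 ± 0.121 (adjusted p = 0.000138).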

How the data were processed

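Polyadenylated RNA was isolated with the RNeasy Mini kit and made into libraries with the TruSeq RNA kit, per the labels' protocols; strand is not given in the sources used here. The submitters' processing notes name CASAVA 1.8 and GRCh37 (hg19). The authors deposited 1 table of RPKM values with gene coordinates. The values were not whole numbers, although the name of the sheet speaks of counts. Groups and replicates came from sample titles, and columns were matched through the sample descriptions. Read totals are not given in the sources used here; depths were estimated from the steps of low values, of which 41.8% of 2323 low genes gave whole reads within a relative tolerance of 0.0015, and from GENCODE gene lengths, matched for 74.3% of entries. Intervals and limits at a count of 0 cover counting error only.

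Log2(RPKM + 0.5) was fitted with limma 3.58.1 in R 4.3.3 (empirical Bayes with intensity trend, all 9 libraries in one model of group means, residual df 6, prior df 4.31), for the 13295 genes that reached 0.5 RPKM in 3 or more libraries. The scale understates the change of low genes. P-values were two-sided and adjusted by the Benjamini-Hochberg method over all tested genes, and calls were made at an adjusted p under 0.05. The fit was tested on simulated data. The members and gene lists were chosen with earlier results of these data known. All 10 members were named, with the other tested ETS genes, up to 4 called genes of a list per comparison by size of change, the nearest entries on each side, and the 3 genes closest by Pearson r to each of the 4 members with the largest changes; the text gives part of these, and genes named without a call were picked after their values were seen. Entries that share reads with similar genes or overlap on the other strand could not be separated. Alternatives were other pseudocounts, filters, scalings and variance models, a replicate block, the compared groups alone, and leaving out each library. Promoter windows are RefSeq sequences on GRCh38.p14; a planned comparison of ETS domains was not done.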

Additional observations from a re-analysis of the deposited data

How the results depend on the processing

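Over 18 alternatives to each test of a member, 363 results kept their side of the threshold, 6 newly passed it, 9 no longer passed it, and 0 called changes reversed. The 363 include changes of sign where neither fit made a call. One was GABPA with MEL-6 against R1881, at 0.10 in the main fit and as low as -0.078 in the alternatives. The calls of ELK4, ETV1, EHF and ELF3 held in all 18 alternatives. Median-of-ratios scaling moved the median log2 change of all genes with R1881 from -0.12 to -0.02 and the genes called lower from 4155 to 2635, so that 49.4% rather than 68.3% of calls were lower; with MEL-6 against R1881 the lower share was 51.5% rather than 39.6%. Upper-quartile scaling gave 44.1% rather than 54.7% in R1881 with MEL-6 against vehicle. Under median-of-ratios scaling 1 member was lower with R1881 and 1 was higher with MEL-6 against R1881, ELF1 being lost at -0.11 and 0.11; with only the compared groups fitted, ELF1 was at 0.19 (limma adjusted p = 0.0539), leaving 1 member higher. The latter fit called GABPA lower with R1881 (-0.24, adjusted p = 0.0294). Against vehicle, 2 members were higher with no filter (ELF3 and ETV5), under upper-quartile scaling (ETS2 at 0.37) and with no intensity trend (ETS2 at 0.33). The causes were not tested.

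Leaving out each library in turn, 1 to 3 members were lower with R1881, 1 to 2 were higher with MEL-6 against R1881, and against vehicle 1 to 2 were higher and 1 to 2 were lower. The log2 change of ELF1 ran from -0.27 to -0.18 with R1881 and from 0.15 to 0.23 with MEL-6 against R1881, that of GABPA from -0.27 to -0.19 with R1881 and from -0.32 to -0.035 against vehicle, and that of ETS2 from 0.26 to 0.43 against vehicle. Genes called lower with R1881 ran from 3333 to 4517.

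Same-numbered samples did not deviate together more than others (r from -0.197 to 0.198, beside -0.180 to 0.187 for different numbers), and the main fit used no pairing. Ranges this alike cannot exclude a passage or day shared by number. The replicate block gave 1817 genes higher and 3831 lower with R1881, 3983 and 2574 with MEL-6 against R1881, and 2028 and 2475 against vehicle, and changed no member's call. Low members are limited by depth, since ETV5 had about 40 reads and ETV4 about 18 over all libraries and ERG was at 0.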
